A study of Mus musculus with 12 samples.

Results

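Homeobox, forkhead and T-box genes, with a few other regulators of early lineages, were examined across 4 lines of mouse embryonic stem (ES) cells that differ in the dose of Rex1. A gene probe was taken when its name on the array began with Hox, Dlx, Lhx, Pax, Nkx, Tbx, Pitx, Meis, Pbx, Irx, Msx or Fox (Foxa2 left out) or with the prefix of Six4, or was T, Gsc, Hand1, Hand2, Gata3, Cdx2 or Eomes. This found 58 probes, and 2 were dropped because their descriptions named other proteins, Tbxas1 (thromboxane synthase) and Paxip1 (a protein that binds PAX factors). The remaining 56 probes stood for 54 genes, out of 20280 probes and 7181 gene names, and only Hand1 and Meis1 had a second probe. No Pitx gene was among them. The arrays carry the older names Tbx12 and Tbx14 for the genes now called Tbx20 and Tbx15, and the probe named Hoxb7 is described there as Hoxb8, so its gene is uncertain.

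Rex1, encoded by Zfp42, is a zinc finger protein used as a marker of undifferentiated ES cells, and it is a relative of the polycomb-recruiting factor YY1. EB5 is a wild-type line derived from E14tg2a, RKPG9 is Rex1+/-, and HP3 and HP4 are Rex1-/- lines that were obtained from Rex1+/- cells by selection in a high dose of puromycin. In the knockout allele a pacEGFP cassette, which gives puromycin resistance and green fluorescence, replaces the start of the reading frame in exon 4, and RKPG9, HP3 and HP4 all carry it. Each line is 1 clone, grown without feeder cells in serum and LIF per the methods, with 3 arrays per line and 12 in all. Whether the 3 arrays of a line stand for separate cultures is not stated in the labels, so each p-value rests on the spread between arrays, and that spread may be technical.

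Homeobox, forkhead and T-box proteins bind DNA and set the identity of tissues and body segments in the embryo. Hox proteins pattern the body axis and bind many of their sites together with Pbx and Meis proteins. In ES cells most of these genes are silent or nearly so, and many lie in CG-rich promoters held by polycomb complexes, which add repressive histone marks until a lineage is chosen. Their transcripts therefore appear as cells leave the undifferentiated state, and a few, such as Pbx and Foxo genes, are also used in ES cells and in most tissues.

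The promoter windows of RefSeq (GRCm38.p6, 250 bases before to 50 after the start of transcription) held 37 of the 54 genes, in 41 windows. A window of 300 bases held between 4 and 37 CG pairs, with a median of 17, against a median of 7 over all 32851 windows, of which 31.4% reached 17 or more. The windows below belong to Pbx2, Gata3 and Pax6, chosen after their values were seen because each differed between a Rex1-/- line and RKPG9; they are shown 5′ to 3′ along the gene with every CG pair in capitals. The Pbx2 window lies at chr17:34592009-34592308 on the plus strand with 29 pairs, that of Gata3 at chr2:9878551-9878850 on the minus strand with 22, and that of Pax6 at chr2:105668646-105668945 on the plus strand with 18, the first of 2 windows for that gene.
Pbx2: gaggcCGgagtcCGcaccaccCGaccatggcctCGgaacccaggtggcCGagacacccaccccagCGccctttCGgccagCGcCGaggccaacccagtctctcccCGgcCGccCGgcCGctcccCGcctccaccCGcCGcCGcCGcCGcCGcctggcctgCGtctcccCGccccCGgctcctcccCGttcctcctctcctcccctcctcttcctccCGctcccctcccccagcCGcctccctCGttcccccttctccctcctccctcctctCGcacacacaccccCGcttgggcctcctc
Gata3: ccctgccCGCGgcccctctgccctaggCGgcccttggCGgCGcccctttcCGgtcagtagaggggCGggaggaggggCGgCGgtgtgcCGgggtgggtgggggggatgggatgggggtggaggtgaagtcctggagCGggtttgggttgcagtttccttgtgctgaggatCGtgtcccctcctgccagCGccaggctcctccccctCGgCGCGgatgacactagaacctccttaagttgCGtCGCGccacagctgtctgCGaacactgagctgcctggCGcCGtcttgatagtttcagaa
Pax6: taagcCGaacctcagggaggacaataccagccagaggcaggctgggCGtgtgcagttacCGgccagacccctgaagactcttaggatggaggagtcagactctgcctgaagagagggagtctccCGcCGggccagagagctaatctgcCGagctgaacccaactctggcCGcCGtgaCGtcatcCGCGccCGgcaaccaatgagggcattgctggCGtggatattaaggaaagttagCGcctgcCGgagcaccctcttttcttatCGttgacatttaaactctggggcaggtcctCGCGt
The 3 windows shown lie above the member median, but the second Pax6 window, not shown, lies below it with 16 pairs. The members varied, with 4 pairs in the single windows of Hoxa9 and Lhx8 and 7 in those of Pax8 and Tbx19. The arrays measured RNA only, so nothing here bears on binding at these sequences.

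Each array compared the RNA of a line, labelled with Cy3, with a universal mouse reference RNA pooled from other cells, labelled with Cy5. Every level below is a log2 ratio of line to reference after normalization. There 0 marks the usual ratio of probes of like brightness, and -1 a ratio 2-fold lower. An offset of 50 draws the ratios of dim spots toward 0, so levels and folds depend on it. Pax6, for example, changed by 0.54 in HP3 against RKPG9, and by 1.08 with no offset. Across all probes, 85.3 to 86.1% were well above background in Cy3 with HP4 RNA, 87.1 to 89.4% with HP3, 89.3 to 89.9% with RKPG9 and 92.2 to 94.5% with EB5. The median Cy3 signal was 481 to 487 on the HP4 arrays and 541 to 546 on the RKPG9 arrays. The EB5 arrays went through the image software in a separate session, with a background adjustment that was off for the other 9, so a difference from EB5 cannot be told apart from the session. RKPG9, HP3 and HP4 were read in 1 session, and their comparisons come first. The mean level of the Zfp42 transcript was 5.44 in HP4, 5.99 in HP3, 6.02 in RKPG9 and 5.98 in EB5. The position of that probe relative to the replaced part of exon 4 is not given in the sources used here, so its level is no check of the genotype.

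The members were dim. Of the 56 probes, 37 were well above background in Cy3 on all 12 arrays, 13 on some and 6 on none, namely Dlx6, Foxa1, Foxp2, Lhx1, Tbx12 (Tbx20) and Tbx19. In EB5 76.8% of the member probes were well above background on all 3 arrays, against 90.0% of all probes, and the shares were 73.2% against 86.5% in RKPG9, 67.9% against 84.0% in HP3 and 69.6% against 81.7% in HP4. No member spot was saturated. After normalization, 32 member probes were below 0 in all 4 lines and 11 were above 0 in all 4, and both counts include probes at background. The median member level was -0.10 in HP4, -0.14 in HP3, -0.16 in RKPG9 and -0.16 in EB5, against -0.02 for the median of all probes in each line. No member had a mean level above 1 in any line, and between 3 and 4 per line were below -1. The lowest were Tbx14 (Tbx15), a limb and skin T-box gene, with a mean of -2.45 in RKPG9, and Hoxa10, a posterior Hox gene, with -2.35. The highest included Pax6, the eye and neural regulator, with a mean of 0.80 in HP3, and Pbx2 with 0.69 in HP4.

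**Figure D1:**
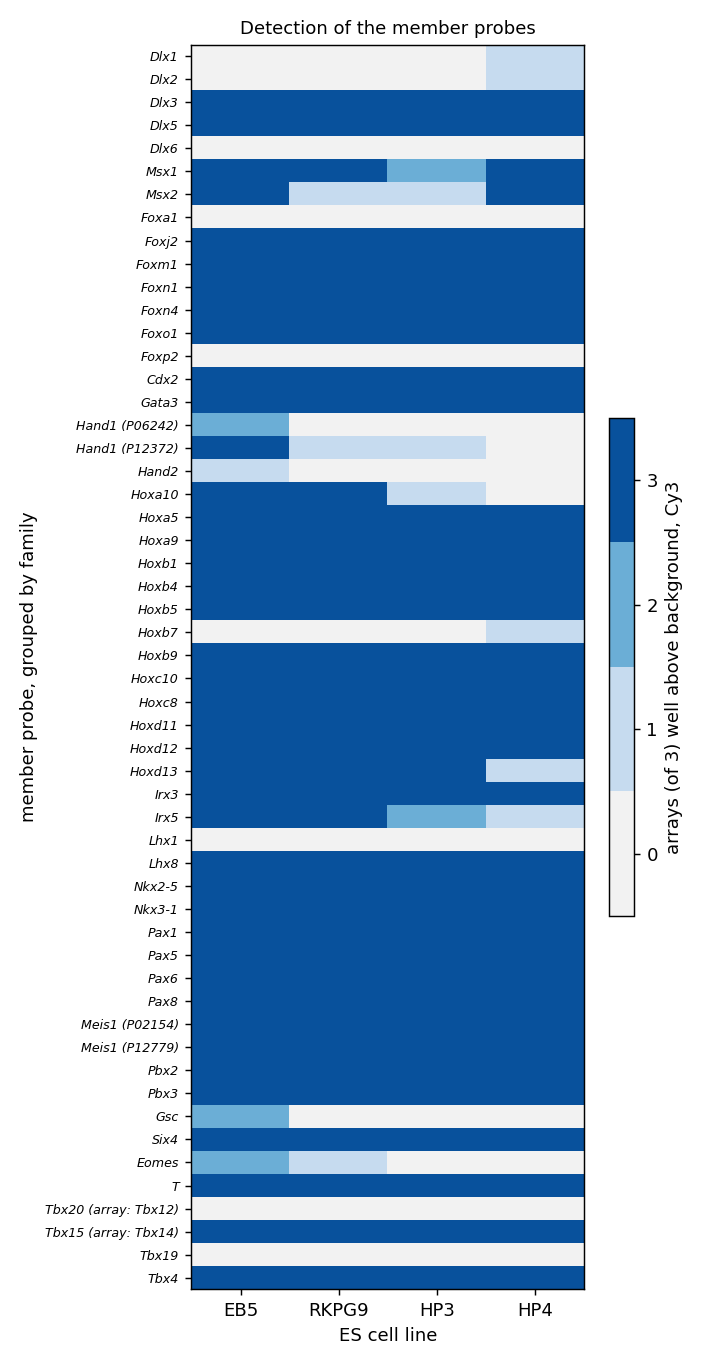
Detection of 54 of the member probes by line, given as the number of arrays (0 to 3, colour) on which the Cy3 spot was well above background; rows are probes grouped by family and columns are the 4 lines. Rows filled dark across all 4 columns are probes measured on all 12 arrays, and Hoxa10 goes from 3 arrays in EB5 and RKPG9 to 1 in HP3 and 0 in HP4.

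Across the 3 comparisons within 1 session, members were called at an adjusted p under 0.05 over all probes (limma, Benjamini-Hochberg), and none changed by more than 2-fold with the main processing. HP4 differed from RKPG9 at 17 probes higher and 4 lower. HP3 differed from RKPG9 at 5 higher and 3 lower, and HP4 from HP3 at 11 higher and 2 lower. Pax6 rose in both Rex1-/- lines, as did 1 probe of Meis1 and that of Msx1. Gata3 was called lower in HP3 and higher in HP4.

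In HP4 against RKPG9 the members called higher were 30.4% of 56, where 20.8% of all probes were higher, and those called lower were 7.14%, where 19.2% of all probes were lower. The median member change was 0.05 and that of all probes 0.01. The split between higher and lower moved with the processing: it was 14 to 14 when the processed signals of the scanner software were used, 11 to 9 with no offset, and 13 to 13 in the authors' table, but 23 to 3 without background subtraction, 13 to 4 in the Cy3 channel alone and 35 to 11 with median centring in place of loess, in contrast to 17 to 4. Of all probes 46.8%, 41.3%, 45.7%, 44.2%, 26.2% and 76.7% were called either way in these settings, in the order given, and 40% with the main processing. More than 2-fold changes were 0 of 56 here, while 0.38% of all probes passed that limit, and 5 members passed it with the processed signals. Of the 38 probes well above background on all arrays of both lines, 14 were higher and 3 lower. The other 4 called probes, Dlx1, Foxa1, Gsc and Hoxa10, did not reach that in both lines. The share of all probes under this filter is not given. With dim probes removed by another filter, 18 of 43 members were called, and 44% of all probes.

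In HP3 against RKPG9 8.93% of the members were higher and 5.36% lower, where the shares of all probes were 12.6% and 10.1%. The median member change was 0.02. The split was 5 to 3, against 4 to 5 with the processed signals or in the authors' table, 3 to 3 with no offset, 5 to 2 without background subtraction, 3 to 2 with median centring and 1 to 1 in the Cy3 channel alone. Of all probes 22%, 22.1%, 20.5%, 23.9%, 15.2% and 10.3% were called either way in these settings, in the order given, and 22.7% with the main processing. A change of more than 2-fold was reached by 0.281% of all probes and by 0 members. In HP4 against HP3, the direct comparison of the 2 Rex1-/- lines, 19.6% of the members were higher and 3.57% lower, against 13.7% and 14.7% of all probes, with 0.0247% of all probes beyond 2-fold. There the split of 11 to 2 became 9 to 6 with the processed signals and in the authors' table, 7 to 5 with no offset, 14 to 1 without background subtraction, 3 to 1 in the Cy3 channel alone and 31 to 12 with median centring. Of all probes 31.5%, 31%, 28.1%, 34.3%, 9.35% and 70.6% were called either way in these, in the order given, and 28.5% with the main processing.

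**Figure D2:**
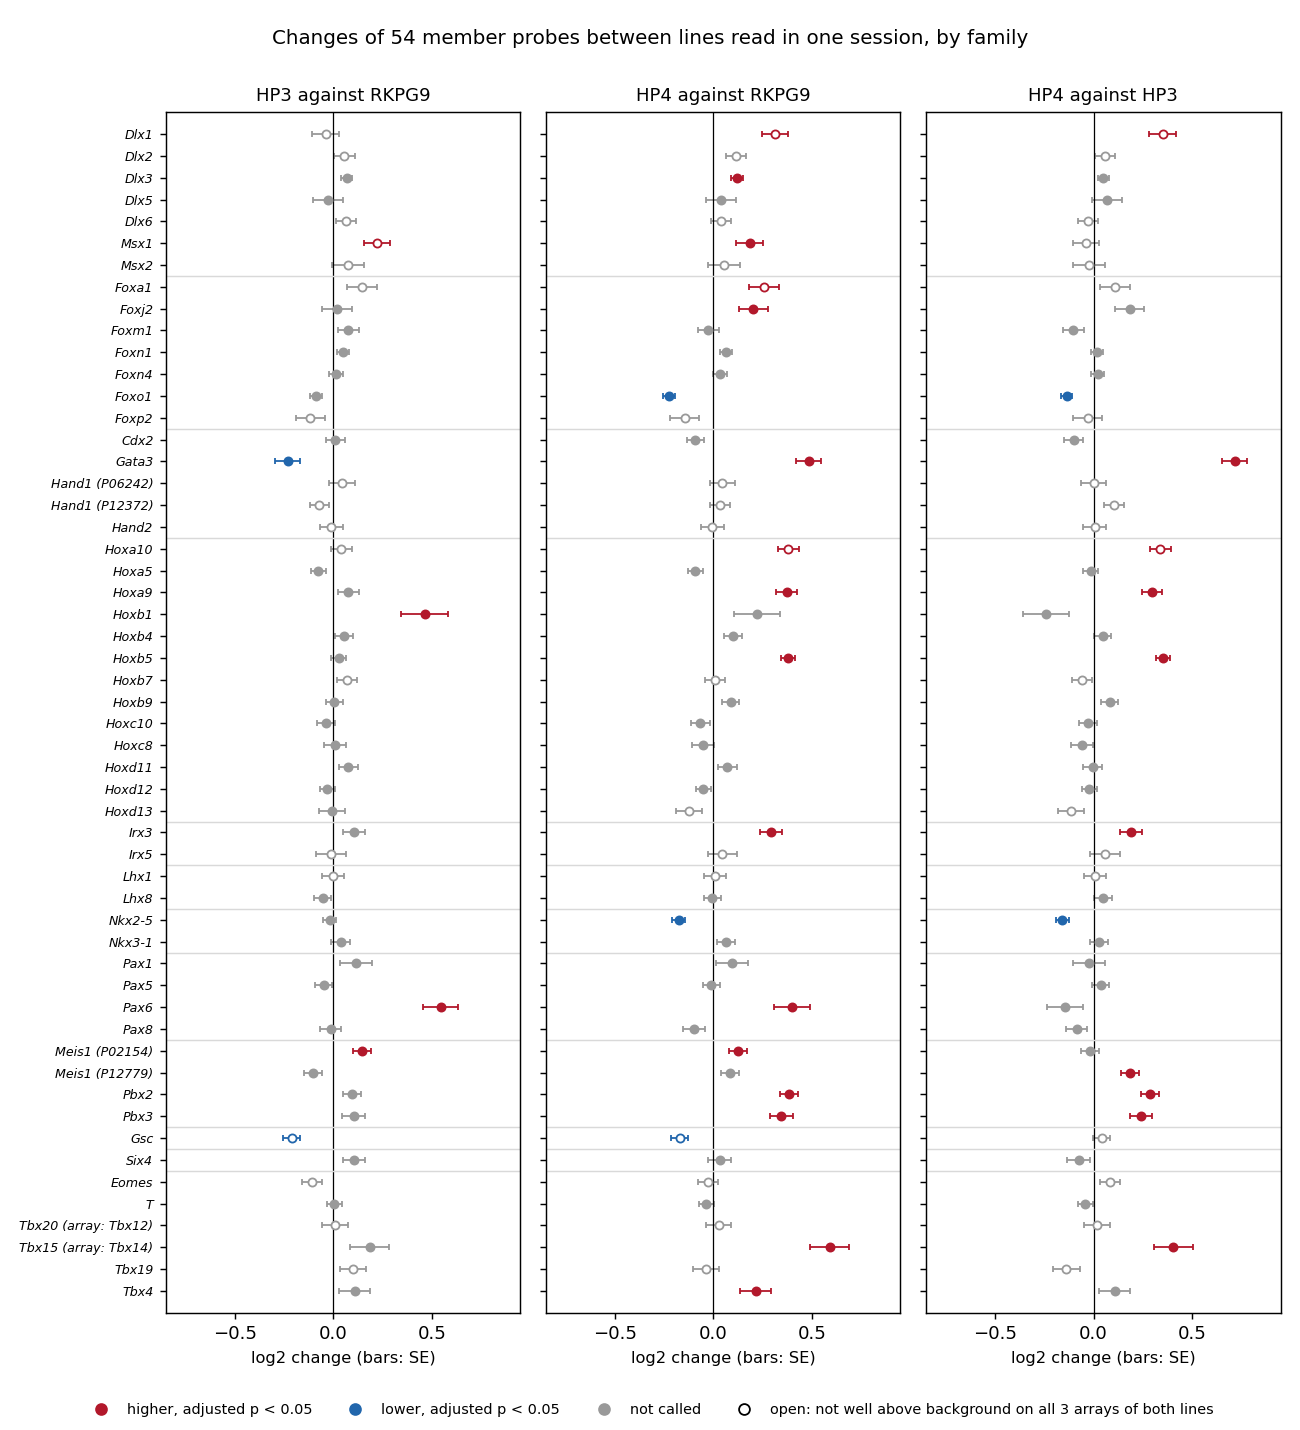
Log2 change of 54 of the member probes (rows, grouped by family) in the 3 comparisons of lines read in 1 session; points are limma estimates over 3 arrays per line, bars their standard errors, red and blue mark probes called higher or lower, and open points mark probes that fell short of the background flag on at least 1 array of either line. Pbx2 and Pbx3 lie to the right of 0 in HP4 against RKPG9, and Gata3 lies on opposite sides of 0 in the comparisons of HP3 and HP4 with RKPG9.

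Pbx2 and Pbx3 are homeodomain partners of Hox proteins. Pbx2 read 0.35, 0.32 and 0.24 with RKPG9 RNA, 0.41, 0.40 and 0.38 with HP3 RNA and 0.69, 0.67 and 0.69 with HP4 RNA. Its HP4 arrays lay above all the others, by 0.38 over RKPG9 (SE 0.05, adjusted p = 5.2e-05), and the difference of 0.10 in HP3 did not pass (adjusted p = 0.18). Pbx3 read -0.59, -0.67 and -0.71 with RKPG9 RNA, -0.45, -0.55 and -0.66 with HP3 RNA and -0.35, -0.34 and -0.25 with HP4 RNA, a rise of 0.35 in HP4 (SE 0.06, adjusted p = 0.00052). HP3 overlapped RKPG9 for Pbx3 and HP4 did not overlap either line. EB5 read -0.36, -0.28 and -0.42 for Pbx3 and overlapped HP4. Pbx2 and Pbx3 were higher in HP4 than in RKPG9 under each of 18 alternatives. They were called in all of them but 1 for Pbx3, which was 0.11 with median centring (adjusted p = 0.088). Several alternatives leave the ratios as they are, so such counts, here and below, are not independent checks. Meis1, the other DNA-binding partner, gave no single answer, since 1 of its probes was higher in both Rex1-/- lines (0.15 in HP3 and 0.13 in HP4, adjusted p = 0.042 and 0.048) and the other was not called against RKPG9 (-0.10 in HP3 and 0.08 in HP4).

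Among the 13 Hox genes, 3 were called higher in HP4 than in RKPG9 and 0 lower, but 2 higher and 4 lower with the processed signals or the authors' table, and 8 higher and 4 lower with median centring. In HP3 1 Hox gene was higher, where 12.6% of all probes were, and 0 in the Cy3 channel alone. Hoxb5 read 0.30, 0.29 and 0.29 with RKPG9 RNA, 0.40, 0.29 and 0.28 with HP3 RNA and 0.66, 0.71 and 0.65 with HP4 RNA. Only HP4 stood apart, by 0.38 over RKPG9 (1.30-fold, SE 0.04, adjusted p = 9.8e-06). Its neighbours in the Hoxb cluster on chromosome 11 did not pass in HP4, with changes of 0.10 for Hoxb4 (adjusted p = 0.10), 0.09 for Hoxb9 (adjusted p = 0.14) and 0.22 for Hoxb1 (adjusted p = 0.16). Hoxb1, the hindbrain member of the cluster, was instead called in HP3, where it read 0.52, 0.37 and 0.03 against -0.18, -0.15 and -0.15 in RKPG9. The HP3 arrays were spread widely but all lay above RKPG9, by 0.46 (SE 0.12, adjusted p = 0.014). With the Cy3 channel alone the rise did not pass (0.45, adjusted p = 0.076), nor did it without HP3 replicate 1 (0.36). Hoxa9 was 0.37 higher in HP4 (SE 0.05, adjusted p = 0.00019) and kept that call under each alternative; it falls outside the rule for named genes and was chosen after its value was seen. Its neighbour Hoxa10 read -2.39, -2.33 and -2.34 in RKPG9 and -1.92, -2.04 and -1.97 in HP4, but its Cy3 spot was well above background on 3 RKPG9 arrays, 1 HP3 array and 0 HP4 arrays. The fitted change was 0.38 with the main processing and -0.81 with the processed signals, so no direction is given for Hoxa10 in HP4.

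Of the 4 Pax genes, only Pax6 was called against RKPG9 with the main processing, while the processed signals gave 2 higher and 1 lower in HP4. Pax6 read 0.30, 0.20 and 0.27 with RKPG9 RNA, 0.65, 0.97 and 0.79 with HP3 RNA and 0.69, 0.69 and 0.60 with HP4 RNA. Both Rex1-/- lines lay above RKPG9 with no overlap, and they overlapped each other. The rise over RKPG9 was 0.54 in HP3 (1.46-fold, SE 0.09, adjusted p = 0.00085) and 0.40 in HP4 (1.32-fold, SE 0.09, adjusted p = 0.0041). With the processed signals the changes were 1.37 and 1.10, and without background subtraction 0.11 and 0.07, all called. EB5 read 0.67, 0.35 and 0.66, within the range of the Rex1-/- lines on 2 of its 3 arrays.

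Gata3, a zinc finger factor of trophoblast and T cells, separated the 2 Rex1-/- lines. It read -1.96, -1.89 and -1.97 with RKPG9 RNA, -2.14, -2.19 and -2.19 with HP3 RNA and -1.53, -1.29 and -1.55 with HP4 RNA. All HP3 arrays lay below RKPG9 and all HP4 arrays above it. HP4 exceeded HP3 by 0.72 (1.64-fold, SE 0.06, adjusted p = 4e-05), the largest change of any member between these 2 lines, and this was called under each of 18 alternatives. Against RKPG9 the change was -0.23 in HP3 (adjusted p = 0.019) and 0.48 in HP4 (adjusted p = 9.5e-05), and with median centring the HP4 change was 0.14 and not called (adjusted p = 0.065). The fall in HP3 was not called without background subtraction (-0.03, adjusted p = 0.51) or in the Cy3 channel alone (-0.14, adjusted p = 0.33), nor without RKPG9 replicate 2, HP3 replicate 2 or HP3 replicate 3 (-0.21, -0.23 and -0.22). EB5 read -1.57, -1.45 and -1.60 and overlapped HP4. Of the other trophoblast regulators among the members, Cdx2 changed by -0.09 in HP4 against RKPG9 (adjusted p = 0.12) with the main processing. Eomes and both Hand1 probes were not called there with it. Cdx2 was called lower there with the processed signals (-0.27), no offset (-0.19), the authors' table (-0.27) and median centring (-0.49). Without background subtraction it was called higher (0.075). The settings that called Cdx2 lower also did so in HP4 against HP3 (-0.25, -0.19, -0.28 and -0.40).

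**Figure D3:**
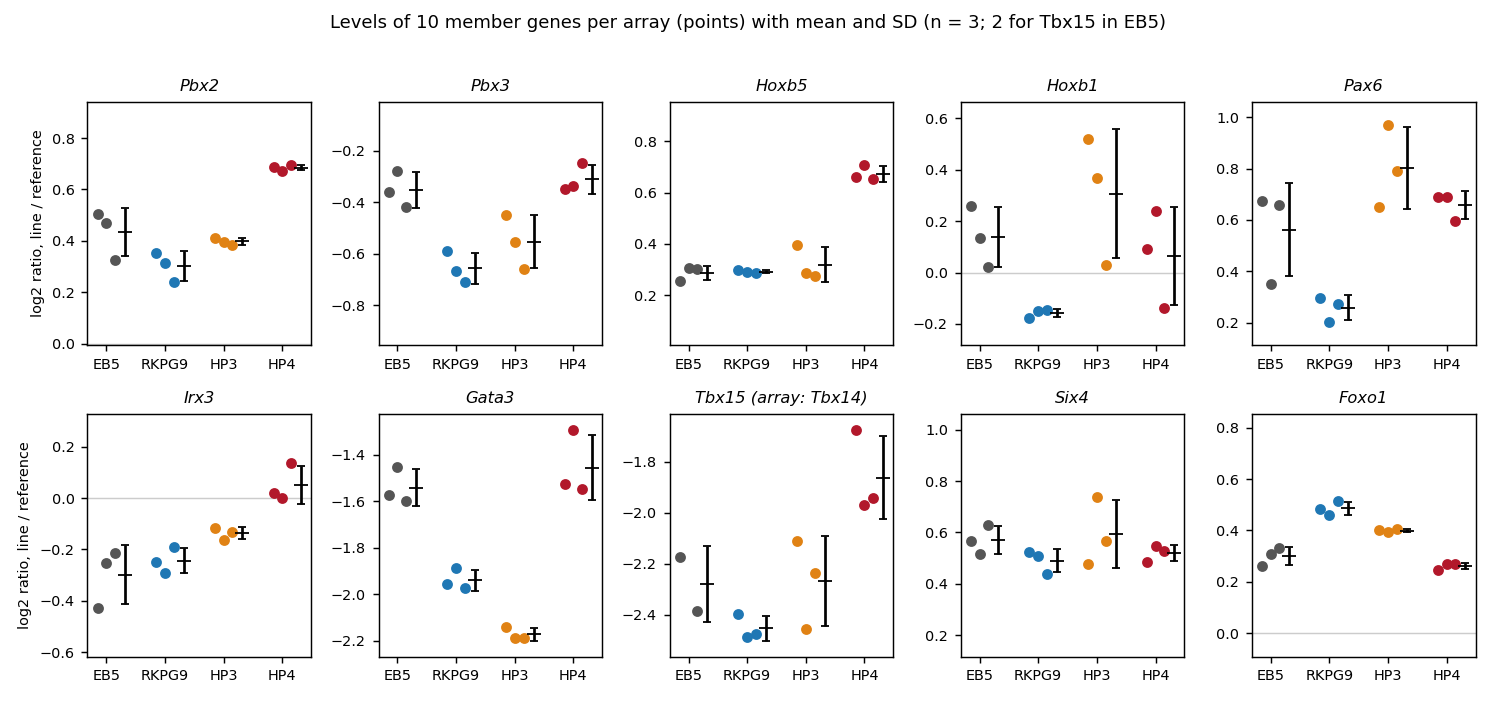
Log2 ratio of line to reference for 10 member genes on each array (points, 3 per line; outlier spot left out for Tbx15 in EB5), with the mean and SD beside them; the vertical axes differ in position. HP4 lies above the other lines for Pbx2 and Hoxb5, and HP3 and HP4 lie on opposite sides of RKPG9 for Gata3.

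In the T-box family Tbx14 (Tbx15) read -2.40, -2.49 and -2.48 with RKPG9 RNA, -2.11, -2.46 and -2.24 with HP3 RNA and -1.68, -1.97 and -1.94 with HP4 RNA. HP4 lay above both other lines, by 0.59 over RKPG9 (1.51-fold, SE 0.10, adjusted p = 0.00077), while HP3 overlapped RKPG9. Tbx4, a hindlimb factor, was 0.22 higher in HP4 (SE 0.08, adjusted p = 0.048), and 12 of 18 alternatives kept that call, which was lost without RKPG9 replicate 2 or 3 or HP4 replicate 2 or 3 (0.18 to 0.20). T, the brachyury gene of the primitive streak, was measured on all 12 arrays and was not called within the session with the main processing. Its mean was -0.18 in RKPG9, -0.18 in HP3 and -0.22 in HP4 (adjusted p = 0.95 and 0.48 against RKPG9, SE 0.04). T was called lower in HP4 than in RKPG9 with the processed signals and in the authors' table (-0.16, adjusted p = 0.023 in each) and with median centring (-0.27, adjusted p = 0.0011), and lower than in HP3 under the same settings (-0.15, -0.15 and -0.21). Eomes, a regulator of mesendoderm and trophoblast, was well above background on 2 EB5 arrays, 1 RKPG9 array and none of HP3 or HP4, and was not called with the main processing. It was called lower in HP3 than in RKPG9 with the processed signals and in the authors' table (-0.54 in each). Both called it higher in HP4 than in HP3 (0.58 in each), as did median centring (0.44). Goosecoid (Gsc), an organizer gene, was well above background on 2 EB5 arrays and no others. Its ratio was 0.21 lower in HP3 and 0.17 lower in HP4 than in RKPG9 (adjusted p = 0.0039 and 0.0087), from spots at background, and with median centring it was 0.29 higher in HP4. Hand1 and Hand2, of heart and trophoblast, were not called within the session with the main processing.

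Calls in both directions were also found in the remaining families. Irx3, a neural patterning gene, read -0.25, -0.29 and -0.19 with RKPG9 RNA, -0.12, -0.16 and -0.13 with HP3 RNA and 0.02, 0.00 and 0.14 with HP4 RNA. The HP4 arrays were above both other lines, by 0.29 over RKPG9 (SE 0.06, adjusted p = 0.0014), and Irx5 was not called with the main processing. Of the Fox genes, Foxo1, an effector of insulin signalling, read 0.48, 0.46 and 0.51 with RKPG9 RNA, 0.40, 0.39 and 0.40 with HP3 RNA and 0.25, 0.27 and 0.27 with HP4 RNA. Each HP4 array was below each RKPG9 and HP3 array, and the fall was 0.22 against RKPG9 (SE 0.03, adjusted p = 0.00012), against 0.09 in HP3 (adjusted p = 0.060). EB5 read 0.26, 0.31 and 0.33 for Foxo1 and overlapped HP4. Nkx2-5, the cardiac homeobox gene, also fell in HP4 alone among the tests with RKPG9, by 0.18 (SE 0.03, adjusted p = 0.0013). Neither fall passed with the Cy3 channel alone. Msx1, of craniofacial mesenchyme, was 0.22 higher in HP3 and 0.18 higher in HP4 (adjusted p = 0.034 and 0.048), with 9 and 10 of 18 alternatives keeping the call, and its HP4 arrays overlapped RKPG9. Leaving out RKPG9 replicate 1 or 3, or replicate 2 or 3 of the Rex1-/- line compared, ended the Msx1 calls (0.17 to 0.22 in HP3, 0.14 to 0.18 in HP4), as did a fit without the EB5 arrays (adjusted p = 0.061 and 0.074). Dlx3, of epidermis and placenta, and Foxj2 rose in HP4 by 0.12 and 0.20 (adjusted p = 0.0063 and 0.049), but Dlx3 was not called with the processed signals (0.056), in the authors' table (0.056), with median centring (0.042) or in the Cy3 channel alone (0.11), and Foxj2 was -0.066 in the Cy3 channel alone and not called in 5 of the 6 fits with an array left out. Six4 changed by 0.10 in HP3 (adjusted p = 0.25) and 0.03 in HP4 (adjusted p = 0.71), neither of which passed. The Lhx genes were not called within the session with the main processing.

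**Figure D4:**
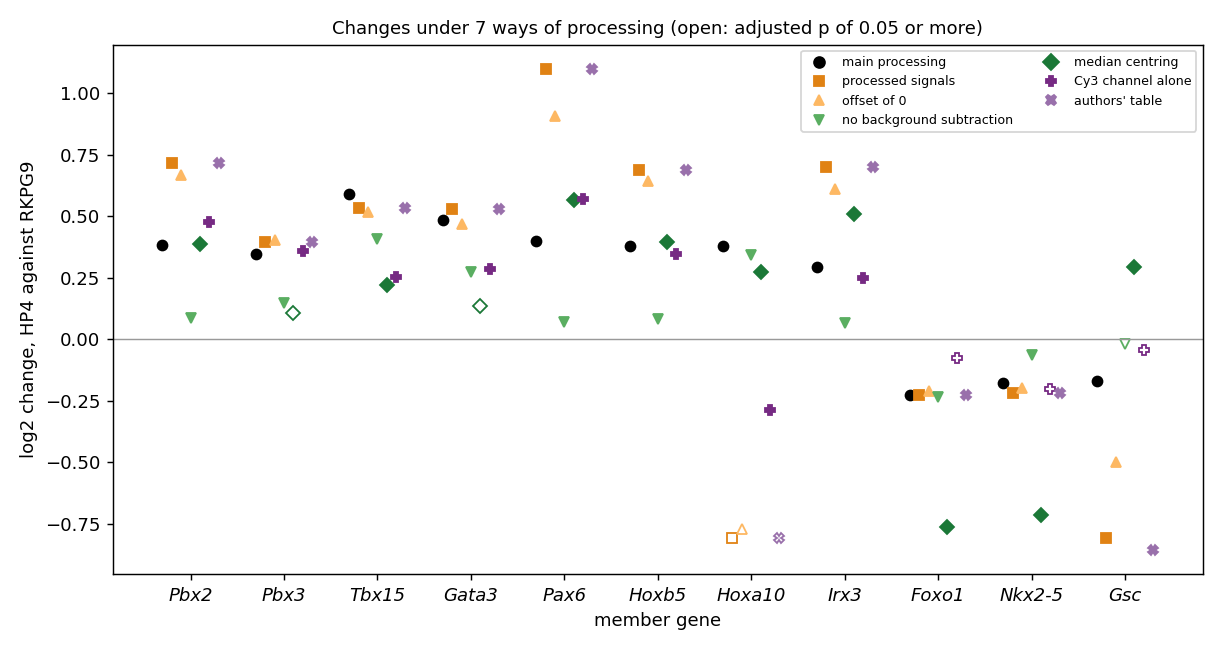
Log2 change of 11 member genes in HP4 against RKPG9 (vertical axis) with the main processing and 6 others (symbols); filled symbols have an adjusted p under 0.05. Pbx2, Tbx15, Pax6, Hoxb5 and Irx3 keep their sign and their call in each, although Pax6 ranges from 0.07 to 1.10, and Hoxa10 and Gsc change sign.

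The HP4 ratios were less spread than those of RKPG9 over all probes, and most members lie below 0. The SD of the mean log2 ratio over all probes was 0.73 in HP4, 0.78 in HP3 and 0.78 in RKPG9. The 1463 probes below -1 in RKPG9 had a median change of 0.21 in HP4, with 59.6% called higher, and the 1347 probes above 1 had a median change of -0.18, with 51.8% called lower. In HP3 the corresponding medians were 0.06 and -0.01. No member was above 0.5 in RKPG9. The 4 members below -1, among them Gata3, Hoxa10 and Tbx14, were called higher in HP4. Between -1 and -0.5 it was 4 of 9, where 33% of all probes were higher, between -0.5 and 0 it was 5 of 25 against 14%, and between 0 and 0.5 it was 4 of 18 against 18.3%. The part of this narrower spread in the members' calls was not tested.

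**Figure D5:**
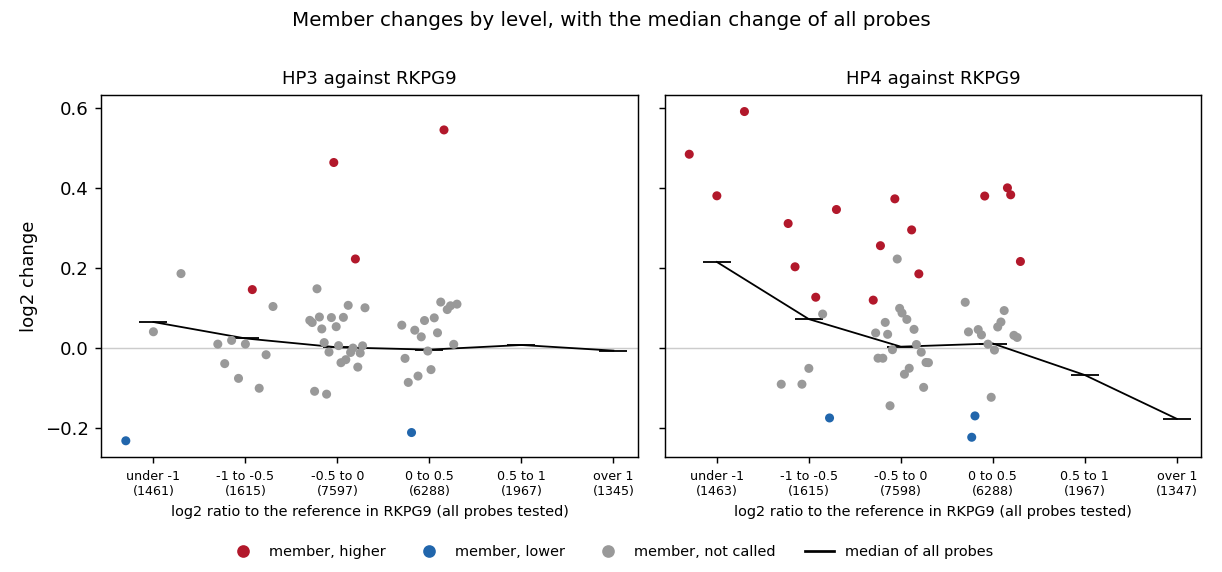
Log2 change of 54 of the member probes in HP3 (left) and HP4 (right) against RKPG9, placed by their level in RKPG9 (horizontal classes, with the number of all probes tested in parentheses); the line joins the median change of all probes in each class. The median falls from 0.21 to -0.18 across the classes in HP4 and stays between 0.06 and -0.01 in HP3, and no member lies in the classes above 0.5.

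Marker lists moved with the same comparisons. In HP4 against RKPG9, 8 of 12 ES cell markers fell and 1 rose, among them Esrrb by 0.67 and Nanog by 0.26, while 5 of 6 mesenchymal markers rose, Vim by 0.85, and 5 of 5 epiblast and neuroectoderm markers rose, a list that includes Pax6. For these lists and the later ones, 20.8% of all probes were called higher in HP4 against RKPG9 and 19.2% lower. Other scalings gave 6 to 10 ES cell markers lower and 3 to 5 epiblast markers higher. In the Cy3 channel alone 3 ES cell markers were higher, against 1 with the main processing. The mesenchymal markers higher were 6 without background subtraction. They were only 2 with the processed signals, no offset, median centring, the Cy3 channel alone or the authors' table. With the processed signals, median centring and the Cy3 channel alone, 1 mesenchymal marker was lower. The summed ratio of the ES cell list was 7.34 to 7.62 in RKPG9 and 6.95 to 7.22 in HP4 on the log2 scale, and that of the mesenchymal list 0.36 to 0.42 and 0.66 to 0.76. In HP3 these sums were 7.40 to 7.56 and 0.45 to 0.94. In EB5, read in the other session, they were 6.86 to 7.26 and 0.42 to 0.98, and both overlapped HP4. In HP3 against RKPG9, 2 ES cell markers rose and 2 fell, 3 of 5 epiblast markers rose, with Otx2 at 0.70, and 1 of 6 mesenchymal markers rose. For the lists in HP3, 12.6% of all probes were called higher and 10.1% lower. All 6 mesenchymal and all 12 ES cell markers were well above background on every array. Of the 5 epiblast and neuroectoderm markers, 4 were well above background on all 3 arrays of each line. The extraembryonic endoderm list had 4 higher and 1 lower of 9 in HP4 against RKPG9 (3 and 3 with the processed signals), and 1 each way in HP3. Of 8 trophoblast markers, Gata3 and 2 keratins were higher in HP4 and Tfap2c was lower, by 1.11, where the processed signals gave 2 higher and 3 lower. Of 7 primitive streak markers, 4 of them members, only Gsc was called in HP4, against 4 lower with the processed signals and 4 higher with median centring. The part of these shifts in the members' changes was not tested, and a few cells of another type and a small change in every cell cannot be told apart in bulk RNA.

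Developmental transcription factors outside the rule were counted in the same way. Of 30 measured, 11 were higher and 4 lower in HP4 against RKPG9 (6 and 4 with the processed signals), with a median change of 0.10, and 4 were higher and 4 lower in HP3, with a median of -0.03. Gata6, of primitive endoderm, rose by 0.66 in HP4, and Sall1 fell by 0.63 in HP3 and 0.93 in HP4. Among 10 inducers and readouts of patterning, 3 were higher and 2 lower in HP4 (3 and 5 with the processed signals), and 1 was lower in HP3. Bmp4, a signal for mesoderm and trophoblast, fell by 0.53 in HP3 and 0.57 in HP4.

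The polycomb and trithorax subunits, which keep these genes silent or active, changed in both directions. Of 30 measured, 7 were higher and 5 lower in HP3 against RKPG9, and 10 were higher and 9 lower in HP4, where median centring gave 3 and 23. Phc1, a subunit of polycomb complex PRC1, rose by 0.57 in HP3 and 0.37 in HP4. Jarid2, which accompanies the methylating complex PRC2, fell by 0.40 in HP4 and was not called in HP3. Ash2l, a core subunit of the trithorax-type methylases, fell by 0.39 in HP3 and 0.55 in HP4. The median change of the list was 0.02 in HP3 and 0.05 in HP4, and no subunit changed by more than 2-fold.

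Against wild-type EB5 the 2 sessions stand on opposite sides of every comparison. RKPG9 had 4 members higher and 14 lower, 7.14% and 25% of the members, where 12.6% and 21.6% of all probes were called, with 0.524% beyond 2-fold. Pbx2 and Pbx3 were among those lower, by 0.13 and 0.30, and the call of Pbx2 held in 7 of 17 alternatives. HP3 had 7 higher and 11 lower (12.5% and 19.6%, against 11.4% and 19.1% of all probes, 0.217% beyond 2-fold), and HP4 had 11 higher and 10 lower (19.6% and 17.9%, against 18.4% and 26.5%, 0.291% beyond 2-fold). These 3 comparisons share the EB5 arrays. With the processed signals the splits were 2 to 12, 3 to 15 and 12 to 19, and in the Cy3 channel alone 2 to 15, 4 to 12 and 12 to 18. Of all probes 34.5%, 35.9% and 56.2% were called either way with the processed signals, and 26.2%, 26.7% and 44.9% in the Cy3 channel alone. Without background subtraction HP4 had 15 to 6, and with median centring 29 to 16, where 37.4% and 79.4% of all probes were called. T read 0.05, 0.00 and -0.01 on the EB5 arrays and was lower in RKPG9, HP3 and HP4 by 0.20, 0.19 and 0.23, with each array of those lines below each EB5 array. Cdx2, the trophectoderm homeobox gene, was lower in all 3 lines too, by 0.24, 0.23 and 0.33, with 1 outlier spot left out in HP3. Probes at background also moved, among them Lhx1, which was well above background on no array and yet was 0.25 lower in RKPG9 (adjusted p = 0.0047), and Hand2, which was above background on 1 EB5 array and 0.23 higher in RKPG9 (-0.19 in the Cy3 channel alone). One Hand1 probe was well above background on all 3 EB5 arrays and on none of HP4. Its Cy3 signal in EB5 was 1.16-fold that measured in HP4, where the spots were near background. Its ratio to the reference was instead 0.12 higher in HP4 and not called (adjusted p = 0.066).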

How the data were processed

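RNA of EB5, RKPG9, HP3 and HP4 ES cells was hybridized in Cy3 against a universal mouse reference in Cy5 on 12 NIA mouse arrays, with dyes not swapped. The deposited spot intensities are the mean signal and the local background median per channel, read by the authors with Agilent Feature Extraction 7.5.1. The deposited log10 ratios are Cy5 over Cy3, and the authors' table of processed values was found to be on a log10 scale, uncentred, with higher meaning more RNA in the line (90.97 to 91.19% of its differences within 0.01 of those of the negative log10 ratio; column medians 2.87 to 2.88).

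Signals were corrected by normexp (offset 50), normalized by loess within arrays with control and outlier spots at weight 0, and averaged per probe. All 12 arrays entered a single limma fit, version 3.58.1 under R 4.3.3 with the package data.table at version 1.17.8, from which 6 comparisons were drawn. Adjusted p-values (Benjamini-Hochberg) run over all gene probes that could be tested in a comparison (20235 to 20278 of 20280), and calls are at 0.05. Each SD has n = 3, or 2 where an outlier spot was left out. A probe counted as measured in a line where the scanner flagged it well above background 3 times of 3. Array number and signal over background limit the precision.

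Named genes were up to 3 per family with the largest called change within the session, every member past 2-fold (0), the 7 genes named singly in the rule, and those measured in one line and absent in another. Results of some single members are not reported here, although the counts include them. Members, lists and tests were chosen with earlier results of these data known. Alternatives covered the background (the scanner software's processed signals, an offset of 0, or no subtraction) and the scaling (median centring, Aquantile, or Cy3 alone). They also covered the values used (the authors' table, outlier spots retained, dim probes removed). For the fit they were a block for replicate number, the 2 lines by themselves, and each array left out. A fit without the EB5 arrays was added after seeing the data. Aquantile changed no ratio. The authors' table and the processed signals gave Pbx2 the same change in HP4 against RKPG9 (0.72). Removing dim probes, the block and the fits of fewer lines mainly altered p-values. A count of alternatives that keep a call therefore includes some that could hardly lose it. On simulated data for HP4 against RKPG9 (20280 probes), 19 of 50 probes changed by 0.2 were called, 50 of 50 changed by 0.5, and 10 of 20080 unchanged ones. Nearly all simulated probes were unchanged, whereas 40% of all probes were called in the real comparison. The adjusted p cut therefore differs, and these rates do not carry over to the calls above. Names came from the arrays and RefSeq GRCm38.p6; scripts used Python 3.11.15, pandas 2.3.3, numpy 2.4.6 and matplotlib 3.10.9.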

Additional observations from a re-analysis of the deposited data

Results flagged for a closer look

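Members whose change from RKPG9 differed between the 2 Rex1-/- lines, by the direct test of HP4 against HP3 (adjusted p under 0.05 in limma, log2 scale), were 13 of 56, where 28.5% of all probes were called. Of those described here, higher in HP4 were Gata3 by 0.72, Tbx14 (Tbx15) by 0.41, Hoxb5 by 0.35, Dlx1 by 0.35, Hoxa10 by 0.34, Hoxa9 by 0.30, Pbx2 by 0.29, Pbx3 by 0.24, Irx3 by 0.19 and 1 of the 2 Meis1 probes by 0.19. Lower in HP4 were Nkx2-5, which fell by 0.16, and Foxo1, which fell by 0.14. Hoxa10, whose direction turned with no offset and in the Cy3 channel alone, and Dlx1 did not rise well above background on every array of both lines. Under other processing Tbx14 was not called in 5 settings, among them the processed signals (0.29), median centring (0.11) and the Cy3 channel alone (0.11). Hoxb5, Dlx1, Foxo1, Nkx2-5 and Pbx3 were not called in the Cy3 channel alone, nor Nkx2-5 without background subtraction (-0.054) or Pbx3 with median centring (0.092). The Irx3 difference was not called with no offset (0.41, adjusted p = 0.060), in the Cy3 channel alone (0.21, adjusted p = 0.053) or without HP3 replicate 2 or 3 or HP4 replicate 3 (0.15 to 0.19). Gata3 was called lower than RKPG9 in HP3 and higher in HP4, but the fall was called in 13 of 18 alternatives (-0.03 without background subtraction), and the rise was not called with median centring (0.14). Between HP4 and HP3, 14.7% of all probes were called lower and 13.7% higher. There, 8 of 12 ES cell markers fell and 4 of 6 mesenchymal markers rose with the main processing. Those counts were 4 and 2 with the processed signals, 3 and 2 with no offset, 4 and 1 from Cy3 by itself, and 10 and 0 with median centring, under which 1 mesenchymal marker fell. With the main processing 45.9% of all probes below -1 in RKPG9 were higher in HP4 than in HP3. Their part in these differences was not tested.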

How the results depend on the processing

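The members called were 8 in HP3 against RKPG9, 21 in HP4 against RKPG9, 13 in HP4 against HP3, 18 in RKPG9 against EB5, 18 in HP3 against EB5 and 21 in HP4 against EB5. With median centring in place of loess they were 5, 46 and 43 in the first 3 and 45 in HP4 against EB5, and 76.7% of all probes were called in HP4 against RKPG9. In the Cy3 channel alone they were 2 in HP3 against RKPG9 and 4 in HP4 against HP3. The other alternatives kept the 6 counts within 1.5 times. With 1 array left out they were 5 to 6, 17 to 18, 12 to 14, 13 to 16, 14 to 16 and 18 to 22; HP3 against RKPG9 had 5 without HP3 replicate 3. Without the EB5 arrays the first 3 were 7, 20 and 13. With the replicate number as a block the counts were 8, 19, 13, 18, 20 and 20. The numbers were not taken to pair the samples, since same-numbered arrays had correlations of -0.18 to 0.19 over 18 pairs, 4 of them over 0.1, and 10 were best with their own number. Members past 2-fold were 2, 5, 2, 1, 4 and 3 with the processed signals.

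Some named genes turned direction, and the cause was not tested. In HP4 against RKPG9, median centring gave 0.36 for Eomes, 0.29 for Gsc and 0.35 for Hand2. No background subtraction gave 0.075 for Cdx2, and the Cy3 channel alone -0.066 for Foxj2 and -0.29 for Hoxa10. Hoxa10 was also -0.81 with the processed signals, -0.77 with no offset and -0.81 in the authors' table. In HP4 against HP3, Hoxa10 was -0.14 with no offset and -0.11 in Cy3 alone, and Msx1 was 0.35 with median centring. In HP4 against EB5, median centring gave -0.33 for Gata3, 0.19 for Gsc, -0.18 for Pbx3 and -0.040 for Tbx14. Cy3 alone gave -0.26 for Dlx3, 0.30 for Foxo1 and -0.078 for Hand2 there, no subtraction 0.070 for Foxj2 and 0.19 for Hoxa10, and the authors' table -1.50 for Hand2. In HP3 against EB5, Foxo1 was -0.01 with median centring, and Hand2 -0.16 in Cy3 alone and -0.59 in the authors' table. In RKPG9 against EB5, Hand2 was -0.19 and -0.50 in those, and Hoxb5 -0.24 in Cy3 alone. Changes near background have little support, since 19 of 56 member probes were not well above background on all 12 arrays.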
